A study of Mus musculus with 6 samples.

Results

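Metallothioneins and the proteins that bring zinc into cells, move it out and read its level were followed in the livers of tumor-bearing and sham mice. The 6 genes were Mt1, Mt2, Mtf1, Slc39a14, Slc30a1 and Slc30a10, taken from the raw count table by their symbols, of 20140 genes listed, and all 6 passed the filter on low counts. Bulk RNA was sequenced from whole liver on day 21, with 2 livers in each of 3 groups. The sham group received PBS in place of tumor cells, and the other groups, labelled intra-C and intra-S, carried CT26 cells, a mouse colorectal carcinoma line of BALB/c origin. The labels do not spell out these names, and they were read from the study's account of its CT26 models in BALB/c mice as implantation into the cecum (intra-C), with livers defined as premetastatic at this time, and injection into the spleen (intra-S), with liver metastasis. For its tumor models the methods give mice 6 to 10 weeks of age. Route and group therefore changed together, the labels name no genotype, and both tumor groups were compared with the same sham livers. RNA of CT26 cells that reached a liver aligns to the mouse genome as well and is part of its counts. Nothing in the labels says whether the 2 livers of a group came from separate experiments, so that the p-values measure the spread between these livers.

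Metallothioneins are small cysteine-rich proteins that bind zinc, copper and cadmium, and in the liver they hold zinc that hepatocytes take up during inflammation. Mtf1 encodes metal regulatory transcription factor 1, a zinc finger protein that senses free zinc and binds metal response elements before the metallothionein genes and Slc30a1. Slc39a14 encodes ZIP14, an importer of zinc, manganese and non-transferrin-bound iron that is induced in hepatocytes by interleukin 6. Slc30a1 encodes ZnT1, the zinc exporter of the plasma membrane, and Slc30a10 encodes ZnT10, which exports manganese.

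Mt2 and Mt1 lie side by side on the plus strand of mouse chromosome 8, at chr8:94172664-94173568 and chr8:94179082-94180327 in GRCm38 (mm10), with 5513 bases between them and 3 exons each in the GENCODE annotation. Mtf1 is at chr4:124802104-124849800 on the plus strand, and Slc39a14 at chr14:70303469-70351425 on the minus strand. Slc30a1, at chr1:191906767-191913247, and Slc30a10, at chr1:185454848-185468762, are both on the plus strand. RefSeq promoters (GRCm38.p6) were found for 5 of the 6 genes. Because the metal response element is the sequence that MTF-1 binds, the 250 bases before the RefSeq start are shown 5′ to 3′ on the strand of the gene for the 4 genes that hold its core, with each match to TGCACNC or TGCGCNC on either strand in capitals. They are chr8:94178839-94179088 for Mt1, chr8:94172368-94172617 for Mt2, chr1:191906531-191906780 for Slc30a1 and chr1:185454598-185454847 for Slc30a10.
Mt1: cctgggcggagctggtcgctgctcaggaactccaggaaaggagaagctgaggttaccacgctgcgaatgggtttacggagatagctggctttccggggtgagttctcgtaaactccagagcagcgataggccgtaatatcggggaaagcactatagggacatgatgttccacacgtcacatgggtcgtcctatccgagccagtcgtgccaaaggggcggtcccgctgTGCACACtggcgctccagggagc
Mt2: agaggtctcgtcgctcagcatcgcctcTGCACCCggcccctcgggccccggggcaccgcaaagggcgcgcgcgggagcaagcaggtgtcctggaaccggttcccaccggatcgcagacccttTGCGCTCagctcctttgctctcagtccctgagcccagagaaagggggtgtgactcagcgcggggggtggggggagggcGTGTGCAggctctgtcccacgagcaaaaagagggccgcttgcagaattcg
Slc30a1: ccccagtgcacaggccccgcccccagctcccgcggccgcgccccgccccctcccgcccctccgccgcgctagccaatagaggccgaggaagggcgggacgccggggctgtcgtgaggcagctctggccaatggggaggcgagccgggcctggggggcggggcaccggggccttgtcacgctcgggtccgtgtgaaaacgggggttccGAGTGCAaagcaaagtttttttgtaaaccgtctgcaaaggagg
Slc30a10: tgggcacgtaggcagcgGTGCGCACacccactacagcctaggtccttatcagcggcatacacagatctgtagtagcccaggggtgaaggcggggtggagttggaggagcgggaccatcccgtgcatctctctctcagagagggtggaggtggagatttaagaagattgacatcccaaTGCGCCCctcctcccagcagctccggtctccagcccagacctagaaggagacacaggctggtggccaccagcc

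The search ran over 300 bases, from 250 before to 50 after the RefSeq start, on both strands. A match to the core was present in 25.7% of all 32851 windows of this length, so a single match is common. Mt2 held 4 matches, as many as or more than which were found in 0.518% of windows, and Mt1 held 3, reached by 1.97% of windows. Of these, 3 of Mt2 and 1 of Mt1 lay before the start. Slc30a10 held 3 matches, of which 2 overlap each other on opposite strands, and Slc30a1 held 2, a number reached by 7.11% of windows. Mtf1 held 0. A palindromic glucocorticoid site, which 0.475% of windows hold, was found before Mt1, from position -94 to -82 relative to the start. The antioxidant response element TGACNNNGC, present in 12.4% of windows, matched once before Mt2 and once before Slc30a1, and the STAT site TTCNNNGAA, present in 8.30%, matched in none of the 5. A match says that these letters are present and a missing match that they are not in this window, which depends on where RefSeq places the start.

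**Figure D1:**
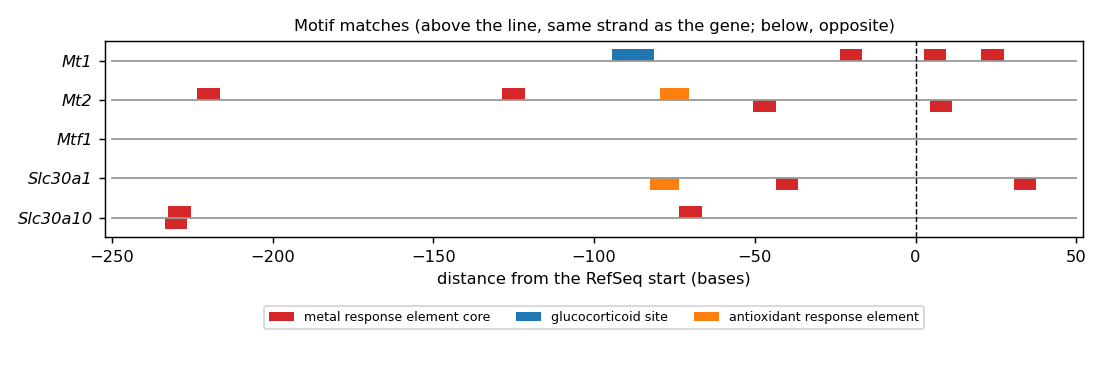
Matches to 3 motifs in the promoter windows of 5 genes, by distance in bases from the RefSeq start (dashed line). Bars above a line are on the strand of the gene and bars below on the opposite strand. Mt2 holds 4 metal response element cores, Mt1 and Slc30a10 hold 3 each, Slc30a1 holds 2 and Mtf1 holds 0.

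The libraries held 32838321 to 43368309 counts, so that 1 count stood for 0.0226 to 0.0309 CPM (counts relative to the library total, scaled by TMM). Liver 1 of intra-S stood apart: its log2 CPM correlated with that of intra-S liver 2 at r = 0.928 across genes, against 0.981 between the sham livers and 0.968 between the intra-C livers, and intra-S liver 2 correlated more closely with the intra-C livers (0.957 and 0.955). Several fold changes of intra-S are therefore also given without it. Such a value rests on 1 intra-S liver, which is assumed to vary like the livers of the other groups, so its p is no check on the error within intra-S. The 7 hepatocyte markers measured were present in each liver, with a summed level of 111719 to 181976 CPM, most of it Alb. Among them, Cyp2e1 was called lower in intra-S (log2 fold change -1.67, adjusted p = 0.0133) and Apob higher in intra-C livers (1.00, adjusted p = 0.0456). The neutrophil markers, 9 in number, summed to 2.49 and 3.44 CPM in the sham livers, where 3 of them were at 0, and to 262 to 1002 CPM in the tumor-bearing livers. The 8 Kupffer cell and macrophage markers summed to 165 to 171 CPM in sham and 481 to 1022 CPM in tumor-bearing livers, and the 5 monocyte markers to 7.61 and 8.65 against 34.5 to 80.8 CPM. The 6 endothelial markers summed to 79.8 and 89.1 CPM in sham and 199 to 334 CPM in tumor-bearing livers. In intra-S livers, all 7 erythroid markers were called higher (228 and 410 CPM summed in sham, 1726 and 1202 in intra-S), and the markers of dividing cells, 5 in number, summed to 14.3 and 8.35 CPM in sham, 24.9 and 32.5 CPM in intra-C and 74.9 and 62.3 CPM in intra-S livers. The stellate and fibroblast markers, 7 in number, summed to 244 and 228 CPM in sham, 277 and 258 CPM in intra-C and 365 and 404 CPM in intra-S livers. The most abundant was Dcn, with means of 139, 170 and 265 CPM. Dcn and Col1a1 were called higher in intra-S and 0 of the 7 in intra-C livers. Only Reln in intra-S (-0.50 on the log2 scale) and Lrat in intra-C livers (-0.72) were lower than sham, neither called. The 6 cholangiocyte and epithelial markers summed to 15.2 and 19.5 CPM in sham and 23.6 to 191 CPM in tumor-bearing livers. Most of this was Spp1, with means of 15.2, 79.6 and 99.9 CPM in sham, intra-C and intra-S livers. In intra-C livers Krt19, Krt7 and Epcam were lower than in sham (-1.12, -0.65 and -1.35 on the log2 scale). Sox9 and Spp1 were higher there, and 0 were called. In intra-S livers Sox9 alone was called, higher. The summed hepatocyte level overlapped between sham and intra-C, the other sums given here differed between sham and at least 1 tumor group, and their part in the changes described below was not tested. In whole liver, a change in the number of cells of a type and a change in RNA per cell cannot be told apart.

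The metallothioneins were the most abundant of the 6 genes and both were higher in every tumor-bearing liver than in either sham liver. In the sham pair Mt1 reached 489 and 604 CPM, in the intra-C pair 2050 and 1602 CPM and in the intra-S pair 3464 and 1614 CPM. Liver 1 of intra-S was the highest of all 6, and liver 2 lay within the intra-C range. Mt2 was at 191 and 332 CPM in sham, 1550 and 1548 CPM in intra-C and 2531 and 1351 CPM in intra-S livers. The intra-S livers lay above and below the intra-C pair. The sham livers differed by 0.80 on the log2 scale, a gap that 2.08% of 9283 genes with a mean of 5 CPM or more exceeded, whereas the intra-C livers were almost equal. Mt2 overlaps Gm45774, a gene on the opposite strand for which no value was analysed here.

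Mt2 rose 5.93-fold from sham to intra-C livers, from 261 ± 99.8 to 1549 ± 1.35 CPM (mean ± SD, n = 2), with a log2 fold change of 2.57 ± 0.41 (SE) and an adjusted p of 0.0222 by edgeR's quasi-likelihood test over 16370 genes. From sham to intra-S livers it rose 7.43-fold, by 2.89 ± 0.41 on the log2 scale (adjusted p = 0.0141). Only 4.29% and 4.60% of the genes tested had a larger log2 fold change in these comparisons. Mt1 rose 4.65-fold from sham to intra-S livers, from 547 ± 81.0 to 2539 ± 1308 CPM, by 2.22 ± 0.40 on the log2 scale (adjusted p = 0.0241). In intra-C livers, Mt1 was at 1826 ± 316 CPM, 3.34-fold the sham level, with a log2 difference of 1.74 ± 0.39 that narrowly missed the threshold of 0.05 (adjusted p = 0.0502). DESeq2 called that difference (adjusted p = 0.000531), as did edgeR with either intra-S liver left out, and the range over all alternatives was 0.000531 to 0.319. Without liver 1 of intra-S, the log2 fold changes of intra-S against sham were 1.57 for Mt1 and 2.38 for Mt2.

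**Figure D2:**
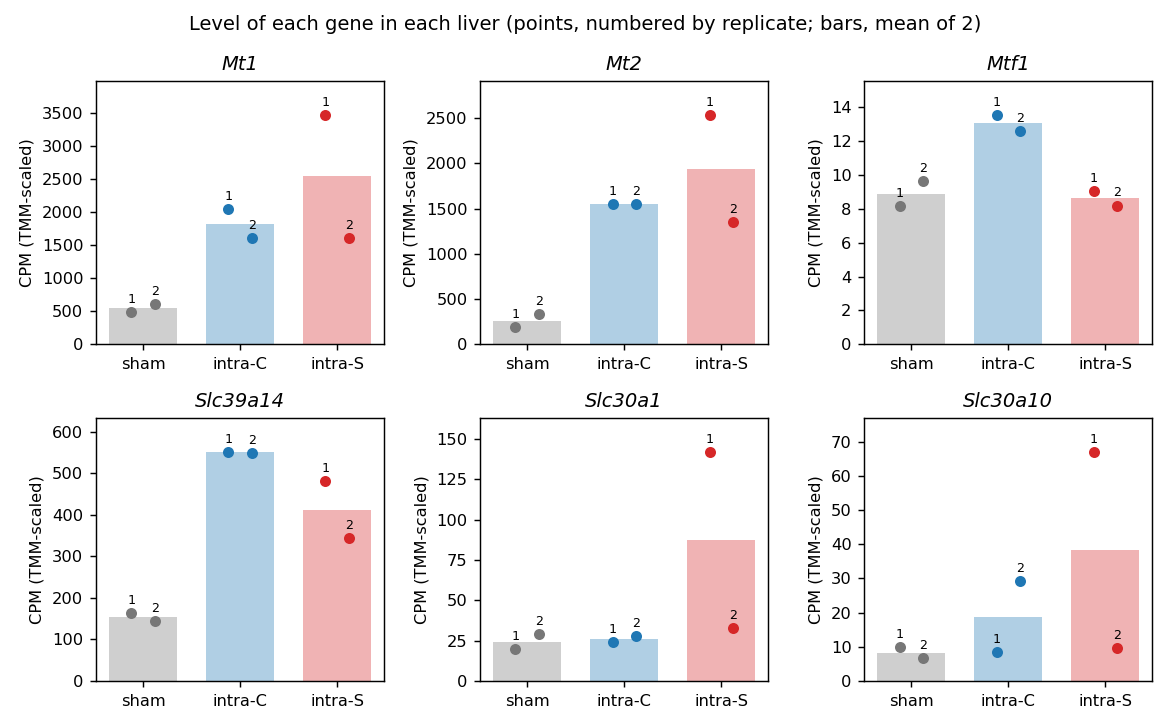
Level of the 6 genes in each liver in TMM-scaled CPM. Points are single livers numbered by replicate and bars are the mean of 2 livers. Both metallothioneins and Slc39a14 lie higher in all 4 tumor-bearing livers than in the sham livers, whereas Slc30a1 and Slc30a10 are highest in liver 1 of intra-S, at 142 and 66.9 CPM.

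Together, Mt1 and Mt2 made up 0.192% and 0.275% of the summed TPM (transcript levels that the authors scaled by gene length) in the sham livers. Their share was 0.940% and 0.908% in the intra-C livers and 1.44% and 0.778% in the intra-S livers, so that no tumor-bearing liver overlapped with sham. By TPM, Mt2 ranked 173 and 96 among all genes in the sham livers, 27 and 26 in intra-C and 17 and 34 in intra-S livers. Mt1 ranked 112 and 91, then 39 and 43, then 22 and 45. The proportion of the pair differed as well, without a test. For each Mt1 count there were 0.390 and 0.550 Mt2 counts in sham livers, 0.756 and 0.966 in intra-C livers and 0.731 and 0.837 in intra-S livers, without overlap between sham and either tumor group. Lack of overlap is common here, as the counts over all genes given further on show, and 2 livers against 2 allow no two-sided exact permutation p under 0.333. Of the other metallothionein genes, Mt3, a form known from the brain, had 0 counts in both sham livers and 2 to 6 counts in the others, below the filter.

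**Figure D3:**
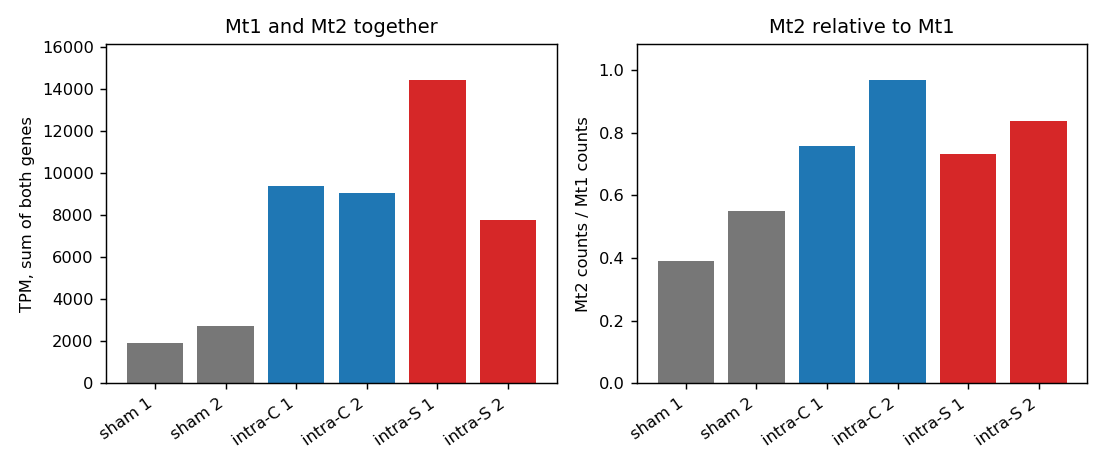
Left, TPM of Mt1 and Mt2 added together in each liver. Right, Mt2 counts divided by Mt1 counts in each liver. Bars start at 0 and are single livers. All 4 tumor-bearing livers lie above both sham livers in both panels, with the highest sum in liver 1 of intra-S and the highest ratio in liver 2 of intra-C (0.966).

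Mtf1, the zinc sensor, was a low-level transcript with 310 to 531 counts per liver. It was at 8.18 and 9.62 CPM in sham, 13.5 and 12.6 CPM in intra-C and 9.04 and 8.19 CPM in intra-S livers. The intra-C livers were thus above the other 4, which overlapped. No comparison of Mtf1 passed the threshold in the fit over all livers: the log2 difference was 0.55 ± 0.22 between intra-C and sham (adjusted p = 0.165), -0.05 ± 0.22 between intra-S and sham (adjusted p = 0.907) and -0.60 ± 0.22 between intra-S and intra-C (adjusted p = 0.342). With the intra-C and sham livers alone in the fit, the first of these was called (adjusted p = 0.0495). Mtf1 overlaps a gene on the opposite strand, 1110065P20Rik, which had 127 to 304 counts, and the kit does not mark strand, so reads of the 2 genes where they overlap cannot be told apart.

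Slc39a14, the ZIP14 importer, was higher in every tumor-bearing liver than in sham, with 164 and 145 CPM in sham, 552 and 550.2 CPM in intra-C and 483 and 343 CPM in intra-S livers. The 3 groups did not overlap, and the intra-S livers lay between the others. From sham to intra-C livers it rose 3.57-fold, from 154 ± 13.9 to 551 ± 1.02 CPM, by 1.83 ± 0.24 on the log2 scale (adjusted p = 0.0149). The rise to the intra-S livers was 2.67-fold, to 413 ± 98.5 CPM, by 1.42 ± 0.24 on the log2 scale (adjusted p = 0.0208). This log2 value was 1.16 without liver 1 of intra-S. Between intra-S and intra-C, the log2 difference of -0.42 ± 0.24 did not pass the test (adjusted p = 0.472).

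Slc30a1, the ZnT1 exporter, did not follow the metallothioneins in the intra-C livers. It was at 19.7 and 28.8 CPM in sham, 23.9 and 28.1 CPM in intra-C and 142 and 32.9 CPM in intra-S livers. Sham and intra-C overlapped, and liver 1 of intra-S was the highest of all 6, the gap between the intra-S livers being one that 3.30% of 9283 genes exceeded on the log2 scale. Between intra-C and sham the log2 difference was 0.10 ± 0.61 (adjusted p = 0.938), and its sign turned under library size scaling without TMM (-0.16). Between intra-S and sham it was 1.85 ± 0.63 (adjusted p = 0.110), and 0.44 without liver 1 of intra-S. DESeq2 called the difference with both livers (adjusted p = 0.0175). The gene overlapping Slc30a1 on the opposite strand, 1700034H15Rik, had 3 to 11 counts.

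Slc30a10, the manganese exporter ZnT10, differed more between the livers of each tumor group than the other 5 genes did. It was at 9.95 and 6.65 CPM in sham, 8.40 and 29.1 CPM in intra-C and 66.9 and 9.54 CPM in intra-S livers. A single liver was high in each tumor group, and the other lay within the sham range. The intra-S livers differed by 2.80 and the intra-C livers by 1.78 on the log2 scale, which 1.64% and 0.743% of the 9283 genes exceeded. No difference passed the test, with 1.17 ± 0.92 between intra-C and sham (adjusted p = 0.460) and 2.20 ± 0.95 between intra-S and sham (adjusted p = 0.176). Without liver 1 of intra-S the latter was 0.21, and DESeq2 called it with both livers (adjusted p = 0.0420). Without liver 2 of intra-C the former was 0.04 (adjusted p = 0.993). Gm2061, a gene on the opposite strand that overlaps Slc30a10, had 16 and 13 counts in sham, 4 and 26 in intra-C and 51 and 12 in intra-S livers, and was highest in the same livers of each tumor group as Slc30a10. As the kit does not mark strand, reads where both genes overlap cannot be told apart, so this is no separate observation of a second gene.

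Of the 6 genes, 2 were called higher and 0 lower in intra-C than in sham livers (Mt2 and Slc39a14), where 4.92% of all genes tested were called higher and 2.38% lower. In 4 of the 6, the livers of these groups did not overlap, a separation seen in 68.4% of all genes. In intra-S livers, 3 were called higher and 0 lower (Mt1, Mt2 and Slc39a14), against a background of 6.78% higher and 3.95% lower, and 4 did not overlap with sham, against 60.4% of all genes. The median log2 fold change of the 6 genes was 1.46 in intra-C and 2.02 in intra-S livers, beside 0.01 and 0.04 over all genes, and the intra-S value was 0.80 without liver 1 of that group. The fit without that liver called more genes in general: 14.5% of 17564 genes higher and 12% lower between intra-C and sham, and 9.58% higher and 6.93% lower between intra-S and sham. In it 3 of the 6 were called higher in each comparison. With either sham liver left out, 0 of the 6 and 0 of all genes were called in these comparisons. With either intra-C liver left out, 0 of the 6 were called between intra-C and sham, and Mt2 alone (1 of the 6) between intra-S and sham. With intra-S and sham livers alone in the fit, the adjusted p was 0.0693 for Mt1, 0.0539 for Mt2 and 0.0659 for Slc39a14.

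Between the tumor groups, 0 of the 6 genes were called by edgeR or by DESeq2. Over all genes edgeR called 0% and DESeq2 called 524 genes. At an unadjusted p under 0.05, edgeR's test had 2 of the 6, beside 13.4% of all genes. They were Slc30a1 (higher in intra-S, log2 difference 1.75 ± 0.63, adjusted p = 0.340) and Mtf1. In 3 of the 6, Mtf1, Slc39a14 and Slc30a1, the tumor groups did not overlap, beside 43.3% of all genes. The log2 difference of intra-S minus intra-C was 0.48 ± 0.38 for Mt1 (adjusted p = 0.601) and 0.33 ± 0.39 for Mt2 (adjusted p = 0.725), so that the call of Mt1 in only one tumor group is no shown difference between them. Slc30a10 had 1.03 ± 0.91 (adjusted p = 0.638). Without liver 1 of intra-S these 3 differences turned negative, at -0.18 for Mt1, -0.20 for Mt2 and -0.97 for Slc30a10, and that of Slc30a1 was 0.34. With liver 1 as the only intra-S liver, the differences of Mt1 (0.92) and Slc30a1 (2.45) passed the threshold, with the spread taken from the other groups.

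**Figure D4:**
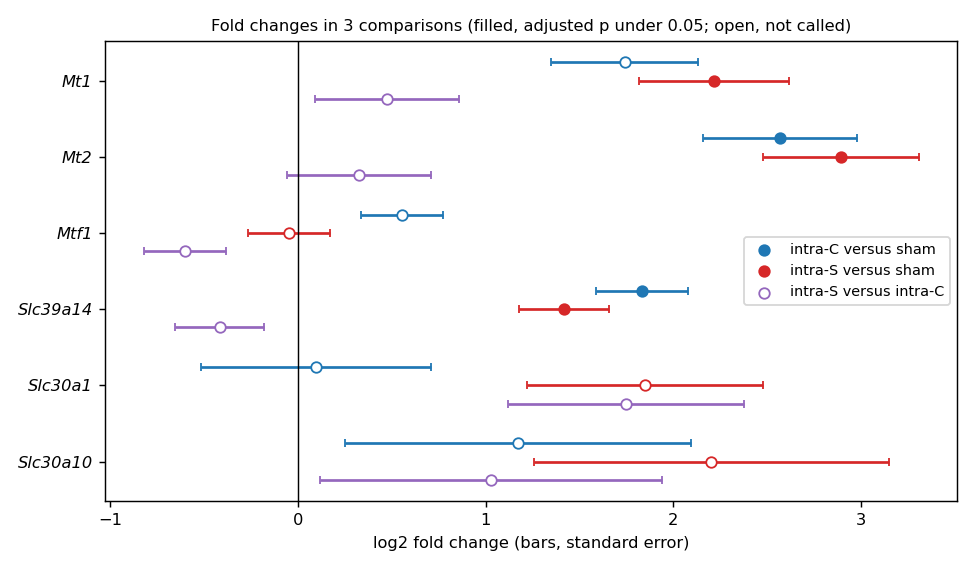
Log2 fold change of the 6 genes in 3 comparisons, with bars of 1 standard error from edgeR's quasi-likelihood fit. Filled points passed an adjusted p of 0.05. The filled points are Mt2 and Slc39a14 in intra-C against sham and Mt1, Mt2 and Slc39a14 in intra-S against sham, and none of the points between the tumor groups is filled.

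Per length, the order of the genes was similar in the groups. In sham livers, mean TPM was 1278 for Mt1 and 1056 for Mt2, whose livers overlapped, 33.9 for Slc39a14, 5.15 for Slc30a1, 3.20 for Slc30a10 and 2.62 for Mtf1, the last 2 of which overlapped. In intra-C livers Mt2 (5502 TPM) lay above Mt1 (3737 TPM) without overlap, Slc39a14 reached 106 TPM, and Slc30a10 at 6.46 and Slc30a1 at 4.86 TPM overlapped, with Mtf1 last by its mean of 3.38 TPM and within the range of Slc30a10. In intra-S livers Mt2 (6323 TPM) and Mt1 overlapped, followed by Slc39a14 at 73.4, Slc30a1 at 14.8 and Slc30a10 at 11.7 TPM, which overlapped, and Mtf1 at 2.06 TPM. The order of Mt1 and Mt2 depended on the length used in 1 liver, sham liver 2, where Mt2 per Mt1 was 0.950 by the deposited TPM: by the exon length of GENCODE, chosen after the data were seen, Mt2 per Mt1 was 0.826 and 1.16 in sham, 1.60 and 2.05 in intra-C and 1.55 and 1.77 in intra-S livers.

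Slc39a14 was the ZIP gene with a call in both comparisons. Of the 14 genes of this family of importers, 1 was called higher and 0 lower in intra-C livers, beside 4.92% and 2.38% of all genes. In intra-S livers 2 were called higher and 0 lower, beside 6.78% and 3.95%. The median log2 fold change of the family was 0.21 and 0.08. Without liver 1 of intra-S, 4 and 3 were called higher, beside 14.5% and 9.58% of all genes in that fit, and the median was 0.42 in intra-S livers. The second was Slc39a6 (ZIP6), at 2.17 and 1.65 CPM in sham, 4.97 and 4.52 CPM in intra-C and 6.80 and 4.93 CPM in intra-S livers. Its livers did not overlap with sham, and its log2 difference was 1.31 ± 0.32 in intra-C (adjusted p = 0.0604) and 1.62 ± 0.32 in intra-S livers (adjusted p = 0.0307). Slc39a1 (ZIP1) was the most abundant ZIP gene in sham livers at 51.6 TPM, above Slc39a14 at 33.9 TPM, whereas Slc39a14 ranked first in both intra-C livers. In intra-S, Slc39a14 was above Slc39a1 in liver 1 (83.2 against 37.3 TPM) and below it in liver 2 (63.5 against 74.5 TPM). Slc39a1 had 0.82 ± 0.31 (adjusted p = 0.151) and 0.40 ± 0.31 (adjusted p = 0.427) on the log2 scale. In the fit without liver 1 of intra-S it was called higher in both comparisons, at 0.83 (adjusted p = 0.00479) and 0.78 (adjusted p = 0.0155). Of the 8 ZnT genes tested, 0 were called in either comparison by edgeR in the fit over all livers. Their median log2 fold change was 0.26 and 0.45, and 0.27 and 0.45 without liver 1 of intra-S. The most abundant of them, Slc30a9, was at 31.5 TPM in sham, 25.2 in intra-C and 30.2 in intra-S livers.

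**Figure D5:**
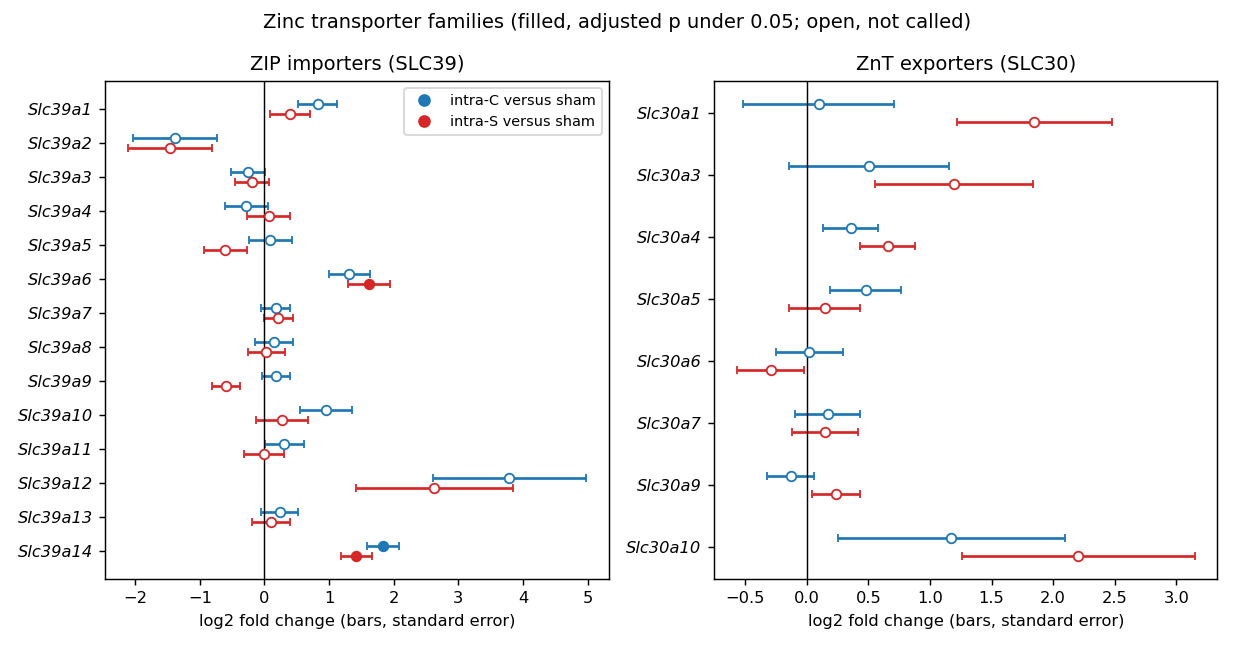
Log2 fold change against sham of 14 ZIP and 8 ZnT genes, with bars of 1 standard error from edgeR's quasi-likelihood fit. Filled points passed an adjusted p of 0.05. Slc39a14 is filled in both comparisons and Slc39a6 in intra-S against sham, and no ZnT gene is filled. The estimate of Slc39a12 rests on 0 and 2 counts in the sham livers.

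Among 8 targets of MTF-1, 1 was called higher and 0 lower in intra-C livers (Mt2), beside 4.92% and 2.38% of all genes. In intra-S livers 3 were called higher and 1 lower, beside 6.78% and 3.95% of all genes. Besides the metallothioneins, these were Ndrg1, a gene that hypoxia also induces, and Gclc, which encodes the catalytic subunit of the enzyme that starts glutathione synthesis. Ndrg1 was at 2.71 and 3.17 CPM in sham, 8.63 and 11.97 CPM in intra-C and 276 and 13.2 CPM in intra-S livers (log2 fold change between intra-S and sham 5.62 ± 1.33, adjusted p = 0.0468). It was highest in liver 1 of intra-S, as Slc30a1 and Slc30a10 were, and the log2 value was 2.16 without that liver. In the fit without it, 5 of the 8 targets were called higher and 1 lower in intra-C livers (14.5% and 12% of all genes), and 4 higher and 1 lower in intra-S livers (9.58% and 6.93%). Gclc fell by 1.34 on the log2 scale in intra-S livers (SE 0.26, adjusted p = 0.0303), from 274 and 219 CPM in sham to 79.0 and 116 CPM.

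ZIP14 and ZnT10 also carry manganese. Of 10 genes of manganese handling, 2 were called higher and 0 lower in both comparisons with sham, beside 4.92% and 6.78% of all genes called higher. These were Slc39a14 and Slc11a2, which encodes the divalent metal importer DMT1. The list's median log2 fold change was 0.30 in intra-C and 0.85 in intra-S livers, and 0.31 and 0.35 without liver 1 of intra-S. Slc11a2 was at 15.8 and 13.8 CPM in sham, 35.9 and 64.1 CPM in intra-C and 34.97 and 51.3 CPM in intra-S livers, without overlap with sham. It rose by 1.76 ± 0.34 (adjusted p = 0.0350) and 1.55 ± 0.34 (adjusted p = 0.0381) on the log2 scale.

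Metallothioneins bind copper as well as zinc. Among 14 genes of copper handling, 3 were called higher and 3 lower in intra-C livers, beside 4.92% and 2.38% of all genes. In intra-S livers 3 were called higher and 2 lower, beside 6.78% and 3.95%. These counts were 5 and 6, and 5 and 4, without liver 1 of intra-S, in a fit that called 14.5% of all genes higher and 12% lower, and 9.58% and 6.93%. Besides the metallothioneins, the higher ones were Cp, the copper-carrying plasma protein ceruloplasmin, which rose by 2.11 ± 0.22 on the log2 scale in both comparisons (adjusted p = 0.00809 and 0.00684), and in intra-C livers Steap4, a metalloreductase, by 3.98 ± 0.84 (adjusted p = 0.0431). Atp7b, which loads copper onto ceruloplasmin and exports it into bile, fell by 0.98 in intra-C (SE 0.19, adjusted p = 0.0348) and by 0.91 in intra-S livers (SE 0.19, adjusted p = 0.0331). In intra-C livers the copper chaperones Ccs and Cox17 fell by 1.05 (adjusted p = 0.0425) and 1.07 (adjusted p = 0.0329), and in intra-S livers the reductase Steap3 fell by 1.08 (adjusted p = 0.0327).

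As metallothioneins and Slc39a14 are known to respond to interleukin 6 through STAT3 and to glucocorticoids, genes of both responses were read from the same fit. Of 10 genes of the STAT3 axis, 7 were called higher and 0 lower in intra-C, and 6 higher and 0 lower in intra-S livers, beside 4.92% and 6.78% of all genes called higher. The fit without liver 1 of intra-S called 9 and 7 higher, beside 14.5% and 9.58%. Stat3 rose by 1.82 ± 0.19 (adjusted p = 0.00785) and 1.03 ± 0.18 (adjusted p = 0.0236) on the log2 scale, and its feedback inhibitor Socs3 by 4.05 ± 0.61 (adjusted p = 0.0195) and 3.49 ± 0.60 (adjusted p = 0.0213), the latter being 4.09 without liver 1 of intra-S. The acute phase genes Lrg1, Hp, Fga and Saa1 were called higher in both comparisons, and the receptor subunit Il6st in intra-C livers. Il6 itself had means of only 0.0246 CPM in sham, 0.158 CPM in intra-C and 0.958 CPM in intra-S livers. It was not called (adjusted p = 0.288 and 0.0601), and neither were Il6ra and Jak1. Of 8 genes of the glucocorticoid response, 0 were called in intra-C livers, beside 4.92% of all genes called higher and 2.38% lower. In intra-S livers 2 were called higher and 0 lower, beside 6.78% and 3.95%. These were Fkbp5, by 1.94 ± 0.46 (adjusted p = 0.0466), and Sgk1, by 4.25 ± 0.97 (adjusted p = 0.0427). The list's median log2 fold change was 1.37 in intra-C and 0.98 in intra-S livers. Both called genes were highest in liver 1 of intra-S, at 363 and 308 CPM, against 137 and 51.9 CPM in liver 2. Without liver 1 the values were 1.08 for Fkbp5 and 2.46 for Sgk1, 5 of the 8 genes were called higher in intra-C livers, beside 14.5% of all genes in that fit, and the intra-S median was 0.27. Neither gene was called between the tumor groups (adjusted p = 0.812 for Fkbp5 and 0.563 for Sgk1).

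Over the 6 livers, Mt1 and Mt2 moved together (Pearson r = 0.979 of log2 CPM), and Slc39a14 correlated with Mt2 at 0.926 and with Mt1 at 0.899. Slc30a1 and Slc30a10 correlated with each other at 0.810, and Mtf1 with Slc30a1 at -0.224. These values are a description over 6 points that share the differences between groups and the high values of liver 1 of intra-S. Among 9282 other genes at 5 CPM or more, the 5 whose pattern was most like Mt1 were Prdm4, Mef2a, Ctsa, Heg1 and Fos (r from 0.995 to 0.999). For Mt2 they were Cmtm3, Galc, Vopp1, Rnf2 and Urml (0.995 to 0.999), and for Slc39a14 they were Cemip2, Kansl1l, Glg1, Mtmr6 and Twf1 (0.995 to 0.997). The closest to Slc30a1 were Phax, Slc4a4, Mkrn1, Riok1 and Calcrl (0.994 to 0.995), those to Slc30a10 were Tbl2, Pelo, Mtmr12, Asb1 and Fbxo11 (0.978 to 0.991), and those to Mtf1 were Smcr8, Fam91a1, Glyr1, Flywch1 and Ell (0.972 to 0.985).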

How the data were processed

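Whole livers of 3 groups (sham, intra-C and intra-S) were analyzed, 2 per group, each as 1 library of polyadenylated RNA. The authors aligned reads to mm10 with HISAT2 2.1.0, counted uniquely aligned exon reads with featureCounts (Subread 2.0.6) and deposited raw counts per gene. The authors also deposited TPM values made from these counts. The annotation and the strand setting are not given in the sources used here.

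From the deposited counts, edgeR 4.0.16's quasi-likelihood test (R 4.3.3) was fitted to all 6 livers with TMM scaling, filterByExpr (count minimum 10) and Benjamini-Hochberg adjustment over 16370 genes. A gene was called at an adjusted p under 0.05. CPM in the text are TMM-scaled, and correlations use log2 CPM with a prior count of 2. Promoters were searched with Python 3.11.15.

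The 6 genes and the gene lists were chosen with earlier results of these data known, and the lists were written by hand. Named from a list are its called genes and some of its most abundant ones. For each of the 6, the 5 genes of closest pattern are named. Alternatives were DESeq2 1.42.0, other scalings and filters, a robust spread, limma 3.58.1 on log2 TPM, the 2 groups alone, a replicate block and each liver left out. Replicate numbers are not said to pair livers.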

Additional observations from a re-analysis of the deposited data

How the results depend on the processing

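Of the 288 values recomputed under the alternatives, 244 kept their direction and their side of the threshold. The number of genes called between intra-C and sham (1195) became 2819 with DESeq2 and 4771 with these groups alone, and 0 to 4658 with single livers left out. Between intra-S and sham (1756) it became 3530 with DESeq2, 392 with these groups alone and 0 to 5693 with single livers left out. Between the tumor groups (0) it became 524 with DESeq2 and 0 to 2884 with single livers left out. Of the 6 genes, those called between intra-C and sham (2) became 4 with these groups alone and 0 to 3 with single livers left out. Between intra-S and sham (3) they became 5 with DESeq2, 0 with these groups alone and 0 to 5 with single livers left out, and between the tumor groups (0) they became 0 to 2.

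The sign of Slc30a1 between intra-C and sham turned with library size without TMM (-0.16), with limma on log2(TPM + 1) (-0.059) and log2(TPM + 0.1) (-0.067), and without sham liver 1 (-0.14, range over left-out livers -0.14 to 0.40). For Mtf1 between intra-S and sham it turned without sham liver 2 (0.073) and without intra-S liver 2 (0.02), with a range of -0.15 to 0.073. Between the tumor groups Mt1 (-0.18), Mt2 (-0.20) and Slc30a10 (-0.97) turned without intra-S liver 1, and the values with other livers left out reached 0.92, 0.71 and 2.18. Library size without TMM moved the median log2 fold change of all genes to -0.25 and -0.23 and the share of higher calls from 67.4% to 41.5% (intra-C against sham) and from 63.2% to 42.9% (intra-S against sham). The cause was not tested.

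With the replicate number as a block, 932, 1507 and 0 genes and 2, 3 and 0 of the 6 were called. Deviations of same-numbered livers correlated at -0.03, 0.08 and 0.04. With a single difference between livers in each group, these values cannot show whether the numbers pair livers. The fits of the gene lists without intra-S liver 1 were chosen after seeing the data. With 2 livers per group, a call lost when a liver is left out rests on fewer livers.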

Other observations

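Of 12 enzymes of the liver that carry zinc, 0 were called higher and 1 lower in intra-C livers, beside 4.92% and 2.38% of all genes. In intra-S livers 0 were called higher and 4 lower, beside 6.78% and 3.95%. The median log2 fold change of the 12 was -0.95 and -1.26, beside 0.01 and 0.04 over all genes. Without liver 1 of intra-S, 7 were called lower in each comparison, in a fit that called 12% and 6.93% of all genes lower. Car5a, the mitochondrial carbonic anhydrase, fell by 1.71 (SE 0.31, adjusted p = 0.0317 by edgeR's quasi-likelihood test) and by 2.43 (SE 0.32, adjusted p = 0.0121). Car3, another carbonic anhydrase, was at 1364 and 1109 CPM in sham, 19.3 and 70.6 CPM in intra-C and 0.583 and 5.69 CPM in intra-S livers, and was called in intra-S livers (adjusted p = 0.0156). Alad, the zinc enzyme of heme synthesis, fell by 2.04 in intra-S livers (SE 0.45, adjusted p = 0.0390), and Dpys, which degrades pyrimidines, fell by 1.73 (SE 0.38, adjusted p = 0.0390). These were -1.49 for Alad and -1.26 for Dpys without liver 1 of intra-S.

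Of 6 proteins that bind zinc outside cells, 3 were called higher and 0 lower in both comparisons with sham, beside 4.92% and 6.78% of all genes called higher. The fit without liver 1 of intra-S called 4 and 3 higher, beside 14.5% and 9.58%. A2m, a protease inhibitor, had 3 and 0 counts in the sham livers and 103 to 229 CPM in the tumor-bearing livers. The others, S100a8 and S100a9, encode the subunits of calprotectin and are also among the neutrophil markers. S100a8 was at 0.394 and 0.634 CPM in sham, 74.0 and 142 CPM in intra-C and 272 and 121 CPM in intra-S livers. Alb, the main zinc carrier of plasma, was at 87423 to 94260 CPM in sham and 84369 to 156594 CPM in tumor-bearing livers and was not called.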
